A study of Mus musculus with 2 samples.

Results

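The Bcl2 family decides whether a cell keeps or loses the outer membrane of its mitochondria, and 10 of its genes were followed here in Cajal-Retzius (CR) cells of the mouse hippocampus. They were taken by symbol from the 32285 genes of the deposited tables and fall into 3 roles. The survival members were Bcl2, Bcl2l1 (BCL-XL), Bcl2l2 (BCL-W) and Mcl1, the pore-forming effectors were Bax and Bak1, and the BH3-only members were Bcl2l11 (BIM), Bbc3 (PUMA), Bad and Hrk. The study deleted Cic, which encodes the transcriptional repressor Capicua, from CR cells and sequenced single cells at postnatal day 14, when many of these transient neurons die.

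The control library came from ΔNp73-Cre; Cic flox/+; tdT mice, which had kept 1 allele of Cic, and the knockout library from ΔNp73-Cre; Cic flox/flox; tdT littermates. Mice of both groups carried the ΔNp73-Cre driver, which is active in the CR lineage, and the Cre-dependent reporter tdTomato (tdT), and live tdT-positive cells were sorted. Each library pooled 4 mice, 3 males and 1 female for the control and 2 males and 2 females for the knockout. With 1 library per genotype no value had a replicate check, no test was made, and every interval given here is an exact 95% interval that covers counting error only. By the study's own immunostaining, CIC protein was lost from most but not all CR cells of this line, so the knockout library can hold cells that kept it.

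In the intact pathway, BCL2, BCL-XL, BCL-W and MCL-1 hold BAX and BAK in check. BH3-only proteins are made or activated under stress or loss of trophic support, bind the survival proteins and free BAX and BAK to form pores. Cytochrome c then leaves the mitochondria and assembles with APAF1 into the apoptosome, which starts the dismantling of the cell. Much of this control acts on proteins, for example through the short life of MCL-1 and the phosphorylation of BAD and BIM, so RNA levels give only part of it.

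A barcode was taken as a CR cell when it held at least 2000 UMIs (unique molecular identifiers, counting captured RNA molecules) and at least 5 UMIs of Reln, the reelin gene that marks CR cells. Of the control barcodes 1003 passed, with a median of 6224 UMIs (2012 to 31769), and of the knockout barcodes 390, with a median of 6664 UMIs (2769 to 33453). No cell barcode occurred in both libraries. All 8 CR markers were found in 25% or more of the cells of either library, though for Reln the rule itself fixed this. In the 10 marker lists of other cell types only Cspg4 (30.3% and 38.0%) and Rgs5 (31.8% and 30.3%) reached that share. Cic itself was at 58.9 CPM (UMIs per 1000000 outside mitochondrial and ribosomal protein genes) in control and 51.3 CPM in knockout cells, a ratio of 0.871 (0.714 to 1.06). Reads at the 3′ end of a transcript need not come from the deleted part of the gene. Etv5, which CIC represses, was at 15 CPM in control and 70.9 CPM in knockout cells, 4.73-fold higher (3.69 to 6.08), and Etv4 was 36.0-fold higher (20.6 to 68.8).

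The sequences upstream of 3 members are shown because each holds a motif of CIC or of FOXO factors, though no comparison here measured FOXO activity. CIC binds octamers of the form TGAATGAA, TGAATGGA, TCAATGAA or TCAATGGA, and FOXO factors, which activate Bcl2l11 and Bbc3 when trophic signaling falls, bind TGTTTAC. Both strands were searched in windows of 300 bases around RefSeq start sites on GRCm38.p6, of which all 10 members had at least 1. A CIC octamer stood in 1 of 16 windows of the members, in 1 of 10 genes, Bcl2, against 3.84% of all 32851 promoter windows. The FOXO motif stood in 2 of 16 windows of the members, in 2 of 10 genes, Bcl2l11 and Bbc3, against 3.65% of all windows. Both of these genes had more than 1 window. The AP-1 motifs TGACTCA and TGAGTCA stood in no member window, against 5.20% of all. The 250 bases before each start site follow from 5′ to 3′, with the motif in capitals.
Bcl2: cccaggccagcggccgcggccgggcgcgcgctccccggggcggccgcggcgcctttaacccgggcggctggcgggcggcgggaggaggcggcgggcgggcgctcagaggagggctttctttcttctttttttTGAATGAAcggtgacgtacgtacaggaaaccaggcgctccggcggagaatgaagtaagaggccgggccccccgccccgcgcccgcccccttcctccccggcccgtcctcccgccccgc
Bcl2l11: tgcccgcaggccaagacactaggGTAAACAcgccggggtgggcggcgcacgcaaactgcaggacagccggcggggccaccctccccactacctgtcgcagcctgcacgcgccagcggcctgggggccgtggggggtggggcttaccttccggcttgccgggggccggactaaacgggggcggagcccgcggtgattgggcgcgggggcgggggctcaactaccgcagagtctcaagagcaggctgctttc
Bbc3: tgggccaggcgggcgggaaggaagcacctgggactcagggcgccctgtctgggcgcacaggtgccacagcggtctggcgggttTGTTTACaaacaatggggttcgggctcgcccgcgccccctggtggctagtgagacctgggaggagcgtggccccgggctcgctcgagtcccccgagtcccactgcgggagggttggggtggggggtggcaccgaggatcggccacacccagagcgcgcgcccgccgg

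The Bcl2 stretch lies at chr1:106714291-106714540 on the minus strand, and its octamer begins 118 bases before the start site. The Bcl2l11 stretch lies at chr2:128125788-128126037 on the plus strand, with the FOXO motif on the other strand 227 bases before the start site. The Bbc3 stretch lies at chr7:16310011-16310260 on the plus strand, inside the gene as GENCODE draws it but in none of its exons, with the motif 167 bases before the start site. These matches are letters in a window and not measured binding. Of the members, Bcl2 is crossed by an antisense gene counted in the same tables, D630008O14Rik, and Bak1 and Bad overlap Ggnbp1 and Gpr137 on the opposite strand, so where strand was not used in counting their UMIs cannot be told apart.

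All 10 members were captured in both libraries, and for 9 of them the ratio of knockout to control lay within 1.5-fold. Among the survival members, Mcl1, whose protein turns over within a short time, was at 46.2 CPM (41.2 to 51.7) in control and 45.6 CPM (37.95 to 54.2) in knockout cells. Bcl2l1 was at 40.6 CPM (35.9 to 45.8) and 38.7 CPM (31.7 to 46.8), and Bcl2l2 at 20.6 CPM (17.3 to 24.4) and 20.97 CPM (15.9 to 27.1). For these 3 genes the intervals of the libraries overlapped widely. Bcl2 was the survival member with the largest ratio, at 15.8 CPM (12.9 to 19.1) in control and 20.6 CPM (15.6 to 26.7) in knockout cells.

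Of the effectors, Bax was at 49.8 CPM (44.6 to 55.5) in control and 48.8 CPM (40.9 to 57.8) in knockout cells. Bak1, the other pore former, was thinly captured, at 4.85 CPM on 32 UMIs and 5.42 CPM on 15 UMIs. Among the BH3-only members, Bbc3, a target of p53, was at 44.99 CPM (40.02 to 50.4) and 55.7 CPM (47.2 to 65.2). Bcl2l11 was at 32.6 CPM (28.4 to 37.2) and 39.1 CPM (32.0 to 47.1). The knockout value was above the control value for both, with overlapping intervals. Bad, which growth factor signaling holds inactive, was at 17.6 and 16.3 CPM, and Hrk, a BH3-only gene of neurons, rested on 22 and 15 UMIs. Because only 3′ ends were counted, these levels are compared between libraries and not between genes.

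**Figure D1:**
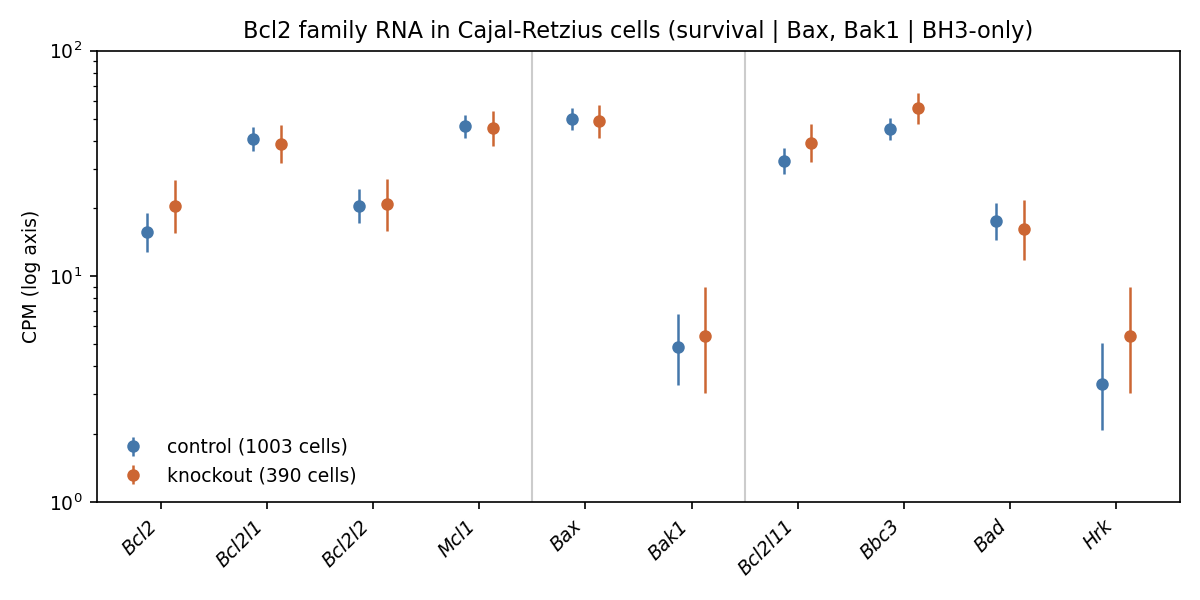
Level of each Bcl2 family gene in all control cells (blue) and all knockout cells (orange), in CPM on a log axis. Points are sums over the cells of 1 library with exact 95% counting intervals, and vertical lines separate survival, effector and BH3-only members. The intervals of the libraries overlap for every gene.

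Survival members took 44.6% (42.3% to 46.9%) of the 1824 member UMIs of control cells and 42.4% (39.0% to 45.9%) of the 820 of knockout cells. Per cell the family was thinly sampled, with a median of 1 member UMI. In the control, 253 cells held no member UMI, 213 held survival members alone, 253 effector or BH3-only members alone and 284 both. In the knockout these were 86, 83, 103 and 118 cells. The share of cells with a UMI ran from 1.79% for Hrk to 24.2% for Bax in the control and from 2.31% for Hrk to 27.7% for Bbc3 in the knockout, and in droplets of 20 to 100 UMIs, which stand for free RNA, no share passed 1.06%. Those droplets held a median of 89 (control) and 44 (knockout) UMIs. After each cell was thinned to 2000 UMIs, Bcl2 was found in 2.79% of control and 2.82% of knockout cells and Bcl2l11 in 4.69% and 4.10%.

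The UMIs of every member were in fewer cells than depth alone would give, in both libraries, and in the control Bcl2 and Bcl2l11 were furthest from it. The same measure was not taken over all genes, so how common such a spread is was not tested. Bcl2l11 had 215 UMIs in 137 control cells, where a spread by depth alone would have reached 190 cells, and 108 UMIs in 49 knockout cells, where it would have reached 92.2. Bcl2 had 104 UMIs in 67 control cells against 97.9 and 57 UMIs in 38 knockout cells against 52.4. Most cells with a UMI still held only 1, with 22 of 67 control and 9 of 38 knockout cells at 2 or more for Bcl2, and 46 of 137 and 22 of 49 for Bcl2l11. Bad was close to Bcl2 in the knockout, in 30 cells against 42.1, but not in the control, in 98 cells against 108. Hrk and Bak1, on 15 UMIs each in the knockout, were in 9 and 11 cells there against 14.7 for either. For Mcl1, 242 control cells held a UMI against 257, and for Bcl2l2 it was 122 against 126, so these genes were spread nearly as depth would spread them. One control cell of 5517 UMIs held 13 UMIs of Bcl2l11 and no other member.

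**Figure D2:**
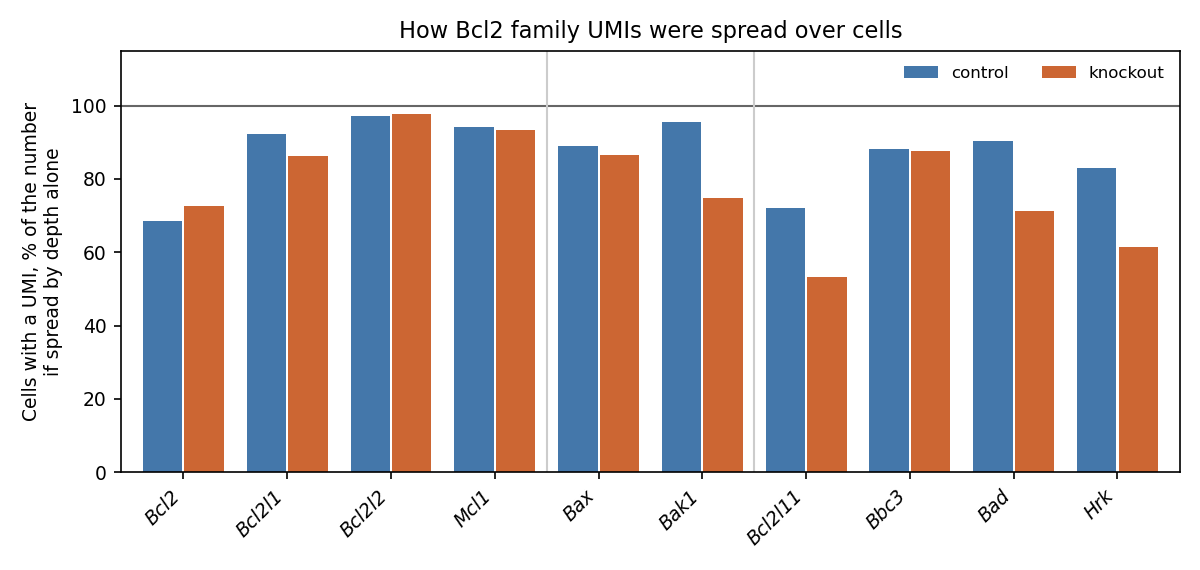
Number of cells with a UMI of each gene, as a percentage of the number that the same UMIs would reach if spread over the cells by depth alone (horizontal line at 100). Control is blue and knockout orange, and vertical lines separate the roles. Bcl2 stands at 68.5% and 72.6% and Bcl2l11 at 72.1% and 53.1%, while Bcl2l2 and Mcl1 lie above 93% in both libraries. In the knockout Hrk stands at 61.3%, Bad at 71.3% and Bak1 at 74.9%.

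One knockout cell carries weight in several of the values below. It held 33453 UMIs, the most of any cell, and 35 member UMIs, of which 18 were Bcl2l11, 4 Bbc3 and 4 Hrk. It also held 6 UMIs of Etv4 and Etv5, and genes of oxidative phosphorylation took 2.10% of its UMIs. Results that rest on it are given with and without the top cell, the cell that held the most UMIs of the gene in each group. Only the UMIs of that gene in that cell were left out there, and the other UMIs of the cell stayed in the total.

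The comparison of the genotypes asks whether loss of Cic moved the balance of survival and death genes. In all cells, none of the 8 members with at least 50 UMIs was past 1.5-fold in either direction, where 4.38% of all 11194 genes tested were higher and 2.97% lower past that fold. The median ratio of the 10 members was 1.07, beside 1.01 over all genes tested. Bcl2 had a ratio of 1.31 (0.930 to 1.82), Bbc3 of 1.24 (1.01 to 1.51) and Bcl2l11 of 1.199 (0.943 to 1.52). Of these, only the interval of Bbc3 left out 1. With every cell thinned to 2000 UMIs in a single random draw the ratios were 0.768 for Bcl2, 0.972 for Bbc3 and 0.963 for Bcl2l11, all below 1. Bak1 was also below 1, at 0.968. Bcl2l1 (1.35), Bad (1.34), Bax (1.25), Bcl2l2 (1.13), Mcl1 (1.045) and Hrk (2.58) were above 1. That draw left few UMIs, with Bcl2 in 28 control and 11 knockout cells, and its ratios have no interval. Without the UMIs of the top cell of each library, Bbc3 was at 1.23 (0.9996 to 1.499), Bcl2l11 at 1.06 (0.820 to 1.37) and Bcl2 at 1.24 (0.868 to 1.76). With the other UMIs of those cells kept in the total, the lower bound for Bbc3 lay too near 1 to place it. Bax, at 0.979, and Mcl1, at 0.986 (0.795 to 1.22), were close to 1. Hrk, below the limit of 50 UMIs, had a ratio of 1.63 (0.785 to 3.28), and of 1.38 (0.594 to 3.06) without the top cells.

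Outside the cells rich in oxidative phosphorylation genes, which are described below, 0 of 8 members were past 1.5-fold, beside 4.81% of 10795 genes higher and 3.60% lower. There the ratio of Bcl2 was 1.08 (0.729 to 1.58), of Bcl2l11 1.02 (0.773 to 1.33), of Hrk 0.970 (0.369 to 2.30) and of Bbc3 1.21 (0.957 to 1.51). The ratios of Bcl2, Bcl2l11 and Hrk were thus nearer to 1 than in all cells, and that of Bbc3 was similar. Bcl2l1 had the lowest ratio, 0.851 (0.650 to 1.105), but after thinning it was above 1, at 1.24.

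The sexes of the cells, read from Xist and 4 Y-linked genes, differed between the libraries, with 702 male and 227 female cells in the control and 194 and 176 in the knockout. Outside the cells rich in oxidative phosphorylation genes, Bcl2 was at 18.0 CPM in male control cells and 9.52 CPM in male knockout cells, a ratio of 0.530 (0.253 to 1.005). In female cells it was at 13.3 and 25.1 CPM, a ratio of 1.88 (0.987 to 3.67). These ratios lay on either side of 1, on 11 to 72 UMIs a group, but the interval of each held 1. With the OXPHOS-high cells kept, Bcl2 was at 17.5 CPM in male control and 18.2 CPM in male knockout cells. In female cells it was then at 13.2 and 22.9 CPM. The knockout value was thus above the control value in both sexes, and the lower male value was seen only outside OXPHOS-high cells. Bax had ratios of 0.759 (0.523 to 1.08) in male and 1.49 (0.955 to 2.32) in female cells, whereas Bbc3 was above 1 in both, at 1.27 and 1.07. Female control cells came from 1 mouse, so sex and animal cannot be told apart.

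**Figure D3:**
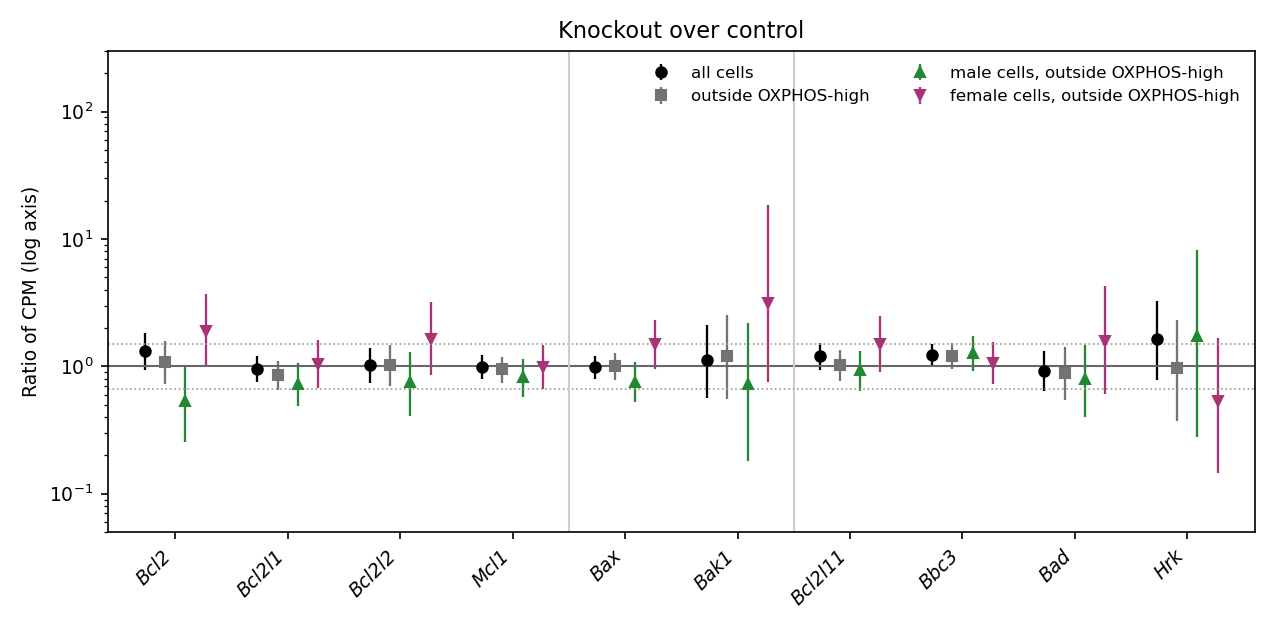
Ratio of knockout to control CPM for each gene on a log axis, in all cells (black circles), outside OXPHOS-high cells (grey squares), and there in male cells (green, pointing up) and female cells (purple, pointing down). Bars are exact 95% counting intervals and dotted lines mark 1.5-fold in either direction. For Bcl2 the male ratio of 0.530 and the female ratio of 1.88 lie on either side of 1.

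The knockout cells were split by Etv4 and Etv5, which CIC normally represses, into 162 cells with a UMI of either (median 7266 UMIs) and 228 with none (6210 UMIs). A UMI is seen more readily in a deep cell, and the split therefore also follows depth. Of the 7 members with at least 50 UMIs, only Bcl2l11 was past 1.5-fold, where 5.35% of all genes tested were higher and 4.35% lower. It was at 48.0 CPM on 59 UMIs in Etv-positive and 31.9 CPM on 49 UMIs in Etv-negative cells, a ratio of 1.51 (1.01 to 2.25). The cell with 18 Bcl2l11 UMIs was among the Etv-positive ones, and without the top cell of each group the ratio was 1.25 (0.792 to 1.98). Outside OXPHOS-high cells, described below, Bcl2l11 was at 37.3 and 31.3 CPM, a ratio of 1.19. Mcl1, lower in Etv-positive cells, was at 33.3 and 50.7 CPM on 33 and 68 UMIs, a ratio of 0.656. Among those 7 members Mcl1 thus took the place of Bcl2l11 as the 1 past the fold. Bak1 (2.70 on 8 and 4 UMIs) and Hrk (0.193 on 1 and 7 UMIs) were also past it. The share over all genes was not taken for this split. In all knockout cells Bcl2 was at 19.5 and 21.5 CPM, a ratio of 0.910 (0.515 to 1.59). After thinning its ratio was 2.47, with a UMI in 7 of 162 Etv-positive cells (4.32%) and 4 of 228 Etv-negative cells (1.75%). In all knockout cells without thinning, Mcl1 had the lowest ratio, 0.745 (0.508 to 1.08), and Bcl2l1 was at 1.32 (0.890 to 1.97). The survival share was 39.7% (34.8% to 44.8%) in Etv-positive and 44.9% (40.1% to 49.6%) in Etv-negative cells.

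The same split in the control library set 87 Etv-positive cells (median 7036 UMIs) against 916 (6144 UMIs). Of these, 13.8% and 23.5% were female. There Bcl2 was at 30.0 CPM in Etv-positive and 14.2 CPM in Etv-negative cells, 2.12-fold higher (1.23 to 3.48) on 20 and 84 UMIs. Bcl2l11 was 1.67-fold higher (1.12 to 2.42) and Hrk 4.15-fold higher (1.43 to 10.8), the latter on 7 UMIs in Etv-positive cells. Bad, at 0.658 (0.277 to 1.34), was lower past the fold. Thus 2 of 8 members with at least 50 UMIs were higher and 1 lower past 1.5-fold, where the share of all genes tested was 5.14% higher and 11.0% lower. With the split made outside OXPHOS-high cells the ratios were 1.71 for Bcl2, 1.46 for Bcl2l11, 4.08 for Hrk and 0.44 for Bad. Bcl2l11 was then under the fold. In all control cells without the top cell of each group the ratios were 1.58 (0.824 to 2.80) for Bcl2, 1.53 (0.997 to 2.29) for Bcl2l11 and 2.74 (0.650 to 8.85) for Hrk. None of these 3 intervals left out 1. After thinning of every cell, Bcl2 was found in 6.90% of Etv-positive control cells (2.57% to 14.4%) and in 2.40% of Etv-negative ones (1.51% to 3.61%), whereas Bcl2l11 was found in 4.60% and 4.69%.

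A small group of cells in each library was rich in nuclear genes of oxidative phosphorylation (OXPHOS), the enzymes of the respiratory chain and ATP synthase. With a limit of 1.8% of UMIs outside mitochondrial and ribosomal protein genes, 83 control and 34 knockout cells were OXPHOS-high, and 41 and 21 cells lay near the limit, between 1.4% and 2.2%. These cells were deeper, with medians of 13502 and 14230 UMIs against 6064 and 6420 UMIs in the other cells. They held less nuclear-retained RNA such as Malat1 (3.40% and 3.59% of UMIs against 7.47% and 7.45%) and more RNA of immediate early genes (0.354% and 0.309% against 0.158% and 0.142%), and the part of these differences in the values below was not tested. Each of the 8 CR markers, with Reln fixed by the rule, was found in 60.2% or more of OXPHOS-high control cells and in 61.8% or more of OXPHOS-high knockout cells. Greater depth raises such shares. The summed level of the CR markers was lower there, at 11403.8 against 14392.5 CPM in the control and 11295.1 against 13797.4 CPM in the knockout.

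Among the effector and BH3-only members, Bad, Bax and Bbc3 were past 1.5-fold and higher in OXPHOS-high cells of both libraries. Bad was at 50.9 CPM in OXPHOS-high and 12.02 CPM in the other control cells, 4.23-fold higher (2.86 to 6.21), and at 46.3 and 10.7 CPM in the knockout, 4.32-fold higher (2.28 to 8.11). Bax was at 109 and 39.9 CPM in the control, 2.73-fold higher (2.14 to 3.46), and at 97.2 and 39.9 CPM in the knockout, 2.44-fold higher (1.65 to 3.55). Bbc3 was 1.65-fold (1.23 to 2.18) and 1.77-fold higher (1.19 to 2.57). In both libraries the counting intervals of these 3 genes left out 1, and Bax and Bad stayed past 1.5-fold in the same direction without the top cell of each group. Bbc3 was then at 1.49 (1.096 to 2.00) in the control, under the fold, and at 1.59 (1.05 to 2.37) in the knockout. Bad in the knockout, on 20 and 25 UMIs, was below the limit of 50 UMIs and is not in the count of members below. The other effector and BH3-only members did not share this, with Bcl2l11 at 0.861 and Hrk at 0.5995 in the control, and Bak1 at 2.00 in the control and 1.35 in the knockout. Bcl2l2, at 1.85 (1.201 to 2.77) and 1.72 (0.870 to 3.20), was the survival member past the fold in both libraries. Its control ratio was above that of Bbc3, as were the knockout ratios of Bcl2, at 2.11, and Bcl2l1, at 1.92.

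The background in this comparison was high, and the members have to be read against it. In the control, 4 of 8 members with at least 50 UMIs were higher and 0 lower past 1.5-fold, where 25.3% of all genes tested were higher and 28.4% lower. In the knockout, 6 of 7 were higher and 0 lower, beside 24.3% and 25.6%, but without the top cells only 3 were past the fold. The median ratio of the 10 members was 1.396 in the control and 1.95 in the knockout, beside 0.909 and 0.923 over all genes tested. Scaling to the median gene instead would raise every ratio of this comparison, since the median log2 ratio of genes with at least 100 UMIs was -0.16 in the control and -0.18 in the knockout.

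Mcl1 did not pass the fold in either library, at 1.06 (0.761 to 1.46) in control and 1.34 (0.827 to 2.09) in knockout cells. Bcl2l1 was at 1.15 (0.807 to 1.59) in control and 1.92 (1.198 to 2.98) in knockout cells. The survival share of member UMIs was 34.5% (29.8% to 39.5%) in OXPHOS-high against 47.3% (44.7% to 49.9%) in the other control cells. In the knockout it was 37.4% (31.0% to 44.1%) against 44.3% (40.3% to 48.4%), where the intervals overlapped. The summed level of the survival members was itself higher in OXPHOS-high cells, at 140.9 against 120.2 CPM in control and 192 against 114 CPM in knockout cells. The lower share went with larger ratios of the summed levels of effector and of BH3-only members. In the knockout, 35 of the 222 member UMIs of OXPHOS-high cells were in the single deep cell. Of these, 18 were Bcl2l11, 4 Bbc3 and 4 Hrk, and the knockout share and summed levels given here include them. With quality limits, given in the closing section, the share in knockout OXPHOS-high cells was near that given here for the other knockout cells.

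Bcl2, Bcl2l11 and Hrk went opposite ways in the libraries. Bcl2 was at 12.7 CPM in OXPHOS-high and 16.3 CPM in other control cells, a ratio of 0.782 (0.390 to 1.43), but at 37.0 and 17.6 CPM in the knockout, a ratio of 2.11 (1.11 to 3.84). These levels rested on 12 and 16 UMIs in 6 OXPHOS-high cells of each library. Bcl2l11 had ratios of 0.861 (0.553 to 1.29) and 1.98 (1.25 to 3.07), and of its 29 UMIs in knockout OXPHOS-high cells 18 were in the single deep cell. Without the top cell of each group the knockout ratios were 0.837 (0.3999 to 1.59) for Bcl2l11 and 1.46 (0.648 to 2.99) for Bcl2, and the control ratio of Bcl2 was 0.414 (0.148 to 0.937). The direction of Bcl2l11 in the knockout thus rested on 1 cell. After thinning, Bcl2 was found in 0 of 34 OXPHOS-high knockout cells, where 10.3% was the upper end of the interval. Hrk was at 2.12 CPM on 2 UMIs in control and 16.2 CPM on 7 UMIs in knockout OXPHOS-high cells, 4 of them in the same deep cell. Its knockout ratio of 4.73 (1.46 to 14.9) was 3.24 (0.503 to 16.7) without the top cells.

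Droplets of 20 to 100 UMIs had a profile that shared features with OXPHOS-high cells. OXPHOS genes took 4.61% and 4.44% of their UMIs, and nuclear-retained RNA 0.846% and 0.808%. Bax was at 144 and 133 CPM there, Bad at 71.6 and 51.0 CPM and Bbc3 at 122 and 124 CPM, each above its level in the other cells of the same library. The survival members were higher too, Mcl1 2.17-fold and 2.44-fold, Bcl2l2 2.05-fold and 2.53-fold and Bcl2l1 1.71-fold and 2.25-fold. Thus 6 of 8 members with at least 50 UMIs were higher and 1 lower past 1.5-fold in each library, where 33.3% of all genes tested were higher and 41.3% lower in the control and 35.8% and 38.3% in the knockout. Bcl2 went the other way, at 3.67 CPM in control and 6.91 CPM in knockout droplets, 0.226 (0.0947 to 0.464) and 0.393 (0.221 to 0.681) of its level in the other cells. Of the 10 members, Bcl2 was the one below the level of the other cells in droplets of both libraries. Bcl2l11 was above it in the control, at 1.30 (1.003 to 1.67), and below it in the knockout, at 0.710 (0.509 to 0.988).

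**Figure D4:**
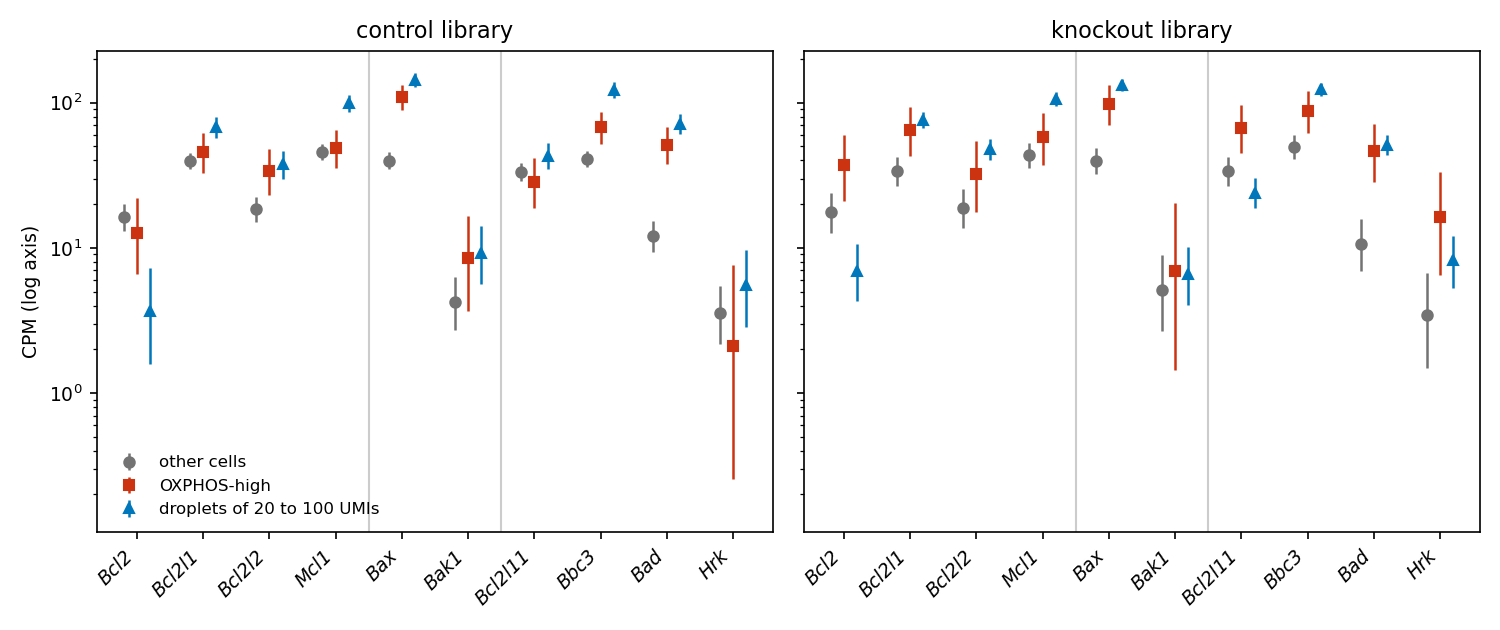
Level of each gene in other cells (grey circles), OXPHOS-high cells (red squares) and droplets of 20 to 100 UMIs (blue triangles) of the control library (left) and the knockout library (right), in CPM on a log axis with exact 95% counting intervals. Bax and Bad are lowest in other cells, higher in OXPHOS-high cells and highest in droplets in both libraries, while Bcl2 is lowest in droplets, at 3.67 and 6.91 CPM.

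Immediate early genes (IEGs) such as Fos are switched on by activity and by the dissociation of tissue, and the cells outside the OXPHOS-high group were ranked by their share of IEG UMIs, and the top and bottom groups of 306 cells each in the control and 118 each in the knockout were compared. Depth was slightly lower in IEG-high cells, with medians of 5957 and 6288 UMIs (control) and 6236 and 7062 UMIs (knockout). Mcl1 was at 57.2 CPM in IEG-high and 32.1 CPM in IEG-low control cells, 1.78-fold higher (1.29 to 2.48), and at 53.8 and 28.1 CPM in the knockout, 1.92-fold higher (1.12 to 3.35). Bcl2l1 went the other way, at 29.7 and 49.2 CPM in the control, a ratio of 0.603 (0.425 to 0.850), and 32.3 and 52.5 CPM in the knockout, a ratio of 0.615 (0.357 to 1.04). Both survival genes were past 1.5-fold in both libraries, with and without the top cells, though after thinning Bcl2l1 in the knockout was at 0.714. The survival share was 49.3% in IEG-high and 46.1% in IEG-low control cells and 45.8% and 45.5% in the knockout.

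In the knockout library Bcl2l11 was also higher with IEGs, at 57.9 CPM on 43 UMIs in IEG-high and 22.0 CPM on 18 UMIs in IEG-low cells, 2.63-fold higher (1.49 to 4.85). It was found in 18.6% of IEG-high and 6.78% of IEG-low knockout cells. Bcl2 was at 31.0 and 9.77 CPM there, 3.17-fold higher (1.37 to 8.19) on 23 and 8 UMIs. Without the top cell of each group these ratios were 4.19 (2.05 to 9.42) for Bcl2l11 and 3.49 (1.34 to 10.7) for Bcl2. In the control library the same ratios were 1.27 (0.860 to 1.87) for Bcl2l11 and 1.17 (0.711 to 1.93) for Bcl2. The knockout ratio divided by the control ratio was 2.08 (1.07 to 4.03) for Bcl2l11 and 2.71 (1.07 to 6.88) for Bcl2. Among members with at least 50 UMIs, 1 of 7 was higher (Mcl1) and 1 lower (Bcl2l1) past the fold in the control. Of all genes tested, 5.25% were higher and 7.95% lower there. In the knockout 2 of 5 were higher (Mcl1 and Bcl2l11) and 1 lower (Bcl2l1), beside 6.74% and 7.84% of all genes tested. Bcl2 was below that limit in the knockout. So were Bad, at 0.276 on 3 and 12 UMIs, and Hrk, at 0.220 on 1 and 5 UMIs, both lower past the fold.

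**Figure D5:**
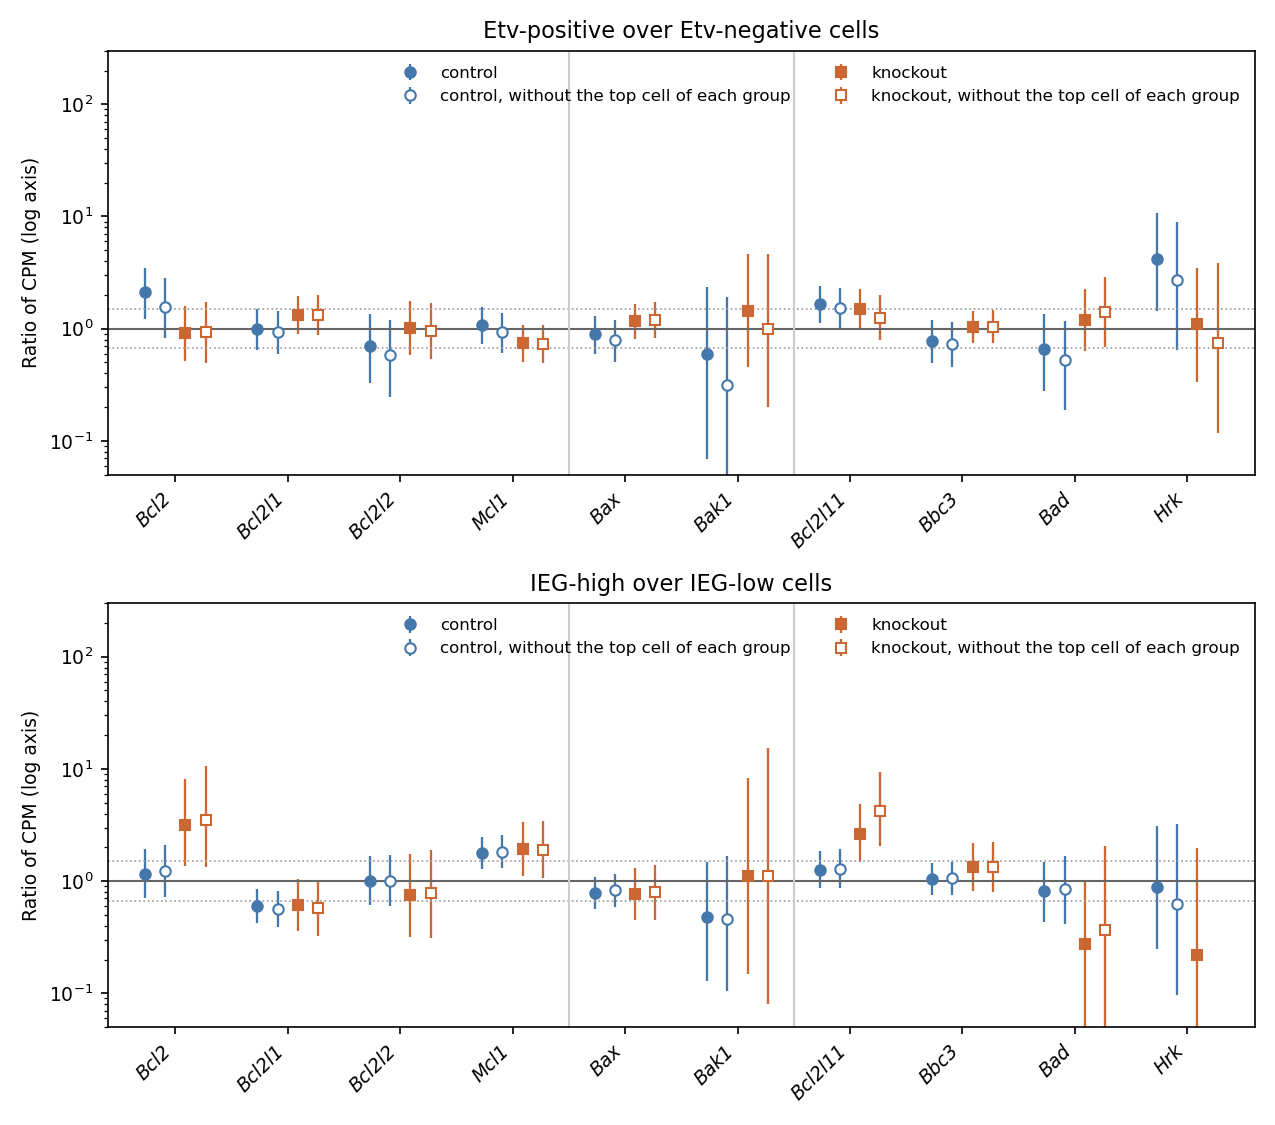
Ratio of CPM between Etv-positive and Etv-negative cells (top) and between IEG-high and IEG-low cells (bottom) on log axes, in the control (blue circles) and the knockout (orange squares). Open symbols leave out the UMIs of the gene in the cell that held the most of them in each group (a ratio of 0, for Hrk in the bottom panel, is not drawn). Bars are exact 95% counting intervals cut at the lower edge, and dotted lines mark 1.5-fold. Mcl1 lies above and Bcl2l1 below 1 in both libraries in the bottom panel.

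Other genes of the pathway gave the setting of these values. Of 17 further family genes, 6 had at least 50 UMIs between the genotypes, and 1 was higher past 1.5-fold in the knockout, Bnip1, at 13.4 CPM against 7.88 CPM, a ratio of 1.70 (1.08 to 2.64), and 1.77 (1.07 to 2.91) outside OXPHOS-high cells. Among released factors, channels and apoptosome genes 0 of 12 were past the fold between the genotypes, and among regulators of the members 0 of 20. Over all genes tested these shares were 4.38% higher and 2.97% lower. In Etv-positive knockout cells Apaf1, the scaffold of the apoptosome, was at 26.1 CPM against 45.5 CPM, a ratio of 0.572 (0.364 to 0.881), the only one of 10 genes of that list past the fold, where 4.35% of all genes tested were lower. In Etv-positive control cells Jun, a gene that can induce Bcl2l11 and Hrk in neurons, had a ratio of 0.562 (0.420 to 0.738). It was the 1 regulator of 20 that was lower past the fold, and 0 were higher. Of all genes tested, 11.0% were lower and 5.14% higher there, so this count was not above the background.

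In OXPHOS-high cells, 6 of 11 genes for released factors, channels and the apoptosome were higher past 1.5-fold in the control and 0 lower, and 5 of 10 were higher and 1 lower in the knockout, beside 25.3% higher and 28.4% lower over all genes tested in the control and 24.3% and 25.6% in the knockout. Cycs, which encodes cytochrome c, was 8.68-fold (6.72 to 11.2) and 7.24-fold higher (4.95 to 10.7), and the outer membrane channel gene Vdac2 5.02-fold and 3.02-fold higher. Vdac1 was 2.67-fold and 2.35-fold and Vdac3 3.15-fold and 1.74-fold higher. Cytochrome c carries electrons in the respiratory chain, the pathway that chose these cells. Bnip3 and Bnip3l, which mark mitochondria for removal, were 5.40-fold and 4.85-fold higher in the control and 3.56-fold and 5.34-fold higher in the knockout. Bok, a BAX-like family gene, was 3.07-fold higher (1.75 to 5.24) in the control. In the knockout it was at 2.08 (0.894 to 4.45), on 10 and 26 UMIs. Bcl2l13 was at 0.717 (0.439 to 1.12) in the control and lower in the knockout, at 0.536 (0.260 to 0.996). Of the further family genes, 4 of 6 were higher and 0 lower past the fold in the control, and 3 of 4 higher and 1 lower in the knockout. The 14-3-3 gene Ywhae, whose protein binds phosphorylated BAD, was 4.04-fold and 4.08-fold higher, and Dynll1, whose dynein light chain binds BIM, 7.09-fold and 5.54-fold higher. Ywhab was 3.82-fold and 3.49-fold higher and Ywhaz 2.34-fold and 2.36-fold higher, and Jun was 2.79-fold higher in the control. At most 4 genes per list and comparison were named, so a gene given for 1 library may also differ in the other. Of 20 regulators, 8 were higher and 2 lower past the fold in the control, and 7 higher and 1 lower in the knockout. Among the regulators, Ywhaz, Jun and Mapk10 were 1.83-fold, 1.79-fold and 1.51-fold higher in IEG-high than in IEG-low control cells. There 3 of 20 regulators were higher and 1 lower past 1.5-fold, beside 5.25% and 7.95% of all genes tested. Jun is in that count, and the genes that ranked these cells included its relatives Fos and Junb. The value of Jun is thus not separate from the ranking.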

How the data were processed

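Single-cell RNA-sequencing was performed on sorted hippocampal CR cells in 2 libraries of pooled mice, 1 per genotype. The authors deposited raw UMI counts per gene and barcode for every barcode, without normalization or cell calling. The matrix header names Cell Ranger 4, the submitters' processing notes Cell Ranger 8.0.1 with mm39, and the methods another version with mm10. Of the 32285 gene identifiers, 99.9% were in GENCODE M21 (GRCm38), from which positions were taken. Whether introns or strand were used in counting is not given in the sources used here.

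UMIs were summed over groups of cells and divided by the UMIs of all genes but those with the prefixes mt-, Rpl, Rps and Mrp. Ratios have exact conditional (Clopper-Pearson) intervals for 2 Poisson counts, and shares have exact binomial intervals. Background shares were taken over genes with at least 50 UMIs in the 2 groups together. The numbers of cells reached under a spread by depth are expected values with no test. Doublets were not removed in the values given, and removal by Scrublet score (scanpy 1.11.5) was an alternative. Ratios of ratios, the Etv split of control cells and the removal of a gene's UMIs in single cells were added after the data were seen. Members and gene lists were chosen with earlier results of these data known. All 10 members were named, with the genes of 3 lists past 1.5-fold whose interval left out 1, up to 4 per list and comparison, except 1 gene that is not reported here. The ratio and its interval were tested on simulated Poisson counts only. Those counts lack the gathering of UMIs in few cells seen for genes such as Bcl2 and Bcl2l11, whose intervals can be too narrow. Python 3.11.15, numpy 2.4.6 and scipy 1.17.1 were used.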

Additional observations from a re-analysis of the deposited data

Results flagged for a closer look

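Bcl2 went opposite ways between the libraries in OXPHOS-high cells, at 0.782 of the other cells in the control and 2.11-fold higher in the knockout, and the knockout ratio divided by the control ratio was 2.70 (1.17 to 6.21). The same quotient was 2.30 (1.28 to 4.14) for Bcl2l11 and 7.89 (1.34 to 46.4) for Hrk, the latter on 2 and 7 UMIs in OXPHOS-high cells. For Bcl2l11 it rested on 1 knockout cell, and without the Bcl2l11 UMIs of the top cell of each group the knockout ratio was 0.837.

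Bcl2 was 2.12-fold higher in Etv-positive cells of the control and at 0.910 in those of the knockout, a quotient of 0.430 (0.210 to 0.881). With every cell thinned to 2000 UMIs in a single random draw, both ratios were above 1, at 2.90 in the control and 2.47 in the knockout. That draw left Bcl2 in 6 Etv-positive and 22 Etv-negative control cells and in 7 and 4 knockout cells, and its ratios have no interval. Whether depth bears on the opposite direction was not tested. Outside OXPHOS-high cells the knockout to control ratio of Bcl2 was 0.530 in male and 1.88 in female cells, and the female ratio divided by the male ratio was 3.55 (1.47 to 8.53). With OXPHOS-high cells kept, Bcl2 was at 17.5 CPM in male control and 18.2 CPM in male knockout cells. In female cells it was then at 13.2 and 22.9 CPM. Leaving OXPHOS-high cells out took its UMIs from 26 to 11 in male and from 28 to 27 in female knockout cells. The sex result and the OXPHOS result of Bcl2 thus draw in part on the same male knockout UMIs. These 5 results were singled out from the quotients of every member in the OXPHOS, Etv, IEG and sex comparisons. The rule asked for opposite directions, at least 1 ratio past 1.5-fold and an interval of the quotient that left out 1. Those intervals chose the results and are no separate support for them. The intervals cover counting error only, and with 1 library per genotype none of the differences was tested.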

How the results depend on the processing

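No paired analysis was possible because there was 1 library per genotype and no result came from a test. Of 206 alternative values for counts of members and survival shares, 167 stayed within the limits set for them and 39 did not. Of 1297 for single ratios, 1197 did, 81 moved and 19 reversed. Causes were not tested. The counts below are of members past 1.5-fold that had at least 50 UMIs in the main comparison, unless another limit is named. They were not held to that limit again under each setting. In female cells, for example, Bcl2 had 28 knockout and 19 control UMIs. The share over all genes was not taken under these settings, so the counts have no background beside them.

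Between the genotypes the count of 0 was 2 in female cells and 1 with a limit of 10 UMIs, and outside OXPHOS-high cells it was 1 in male and 3 in female cells. For Etv-positive knockout cells the count of 1 was 0 with quality limits, with doublets removed, with CPM over all UMIs, with the median ratio set to 1, in female cells, without the top cells, at 2-fold and with a limit of 200 UMIs. It was 2 after thinning, in male cells, with Etv4 alone and with Etv UMIs read after thinning. For OXPHOS-high control cells the count of 4 was 2 at 2-fold and with a limit of 200 UMIs. For OXPHOS-high knockout cells the count of 6 was 3 in female cells and without the top cells, 2 at 2-fold and 0 with a limit of 200 UMIs. For IEGs in the control the count of 2 was 5 in female cells and 0 at 2-fold and with a limit of 200 UMIs, and in the knockout the count of 3 was 1 at 2-fold, 0 with a limit of 200 UMIs and 5 with a limit of 10 UMIs. For Etv-positive control cells the count of 3 was 1 with at least 10 Reln UMIs, in male cells, at 2-fold and with a limit of 200 UMIs. It was 7 in female cells, on only 12 Etv-positive against 215 Etv-negative cells. With Etv4 alone it was 6, on only 11 Etv-positive cells, and with a limit of 10 UMIs it was 5. The survival share was 27.9% in female OXPHOS-high control cells and 46.0% in thinned knockout cells, and in OXPHOS-high knockout cells it was 44.4% with quality limits and 50% after thinning.

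Ratios that reversed in female cells were Hrk between the genotypes (0.745), Bcl2l11 in Etv-positive knockout cells (0.878), Bcl2l2 in OXPHOS-high control cells (0.441), Bcl2 in OXPHOS-high knockout cells (0.271) and Bak1 with IEGs in the control (2.15). In male cells Hrk in OXPHOS-high control cells was 1.93. After thinning, Bcl2 and Hrk in OXPHOS-high knockout cells were 0 and 0, and in Etv-positive control cells Bak1 was 1.501, Bcl2l11 0.764, Bad 1.31 and Hrk 0. Bcl2l11 in OXPHOS-high knockout cells was 0.802 with quality limits, 0.837 without the top cells and 0.483 with the OXPHOS limit at 2.2%. With Etv4 alone in the control, Bcl2 was 0, Bcl2l11 0.402, Bad 1.51 and Hrk 0. After thinning, the knockout to control ratio was 0.768 for Bcl2 and 0.972 for Bbc3, and 1.35 for Bcl2l1, 1.25 for Bax and 1.34 for Bad. Bcl2 in Etv-positive knockout cells was then 2.47. With the Etv split made outside OXPHOS-high cells the count in the knockout stayed at 1 but for Mcl1 (0.656) in place of Bcl2l11 (1.19). In the alternatives run, Bax and Bad were past 1.5-fold and higher in OXPHOS-high cells in 17 of 17 in each library.

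Depth limits Hrk, Bak1 and the small groups of cells most, since many of their values rest on fewer than 20 UMIs.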
